A study of Mus musculus with 15 samples.

Results

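The ribosome biogenesis and nucleolar genes described here are 36 mouse genes, picked by name from a list of nucleolar and ribosome-making factors, of 54838 genes in the count table. All 36 symbols were matched to 1 Ensembl gene each, and 35 had enough reads to be tested. By role, 7 act in or beside transcription of ribosomal RNA, 8 in its chemical modification, 7 in making the small subunit, 10 in assembling the large subunit, and 4 are enzymes of nucleotide and polyamine synthesis that accompany cell growth. They were measured by RNA sequencing of poly(A)-selected RNA from wild-type mouse splenic B cells, in 15 libraries.

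The 9 activated libraries came from naive B cells held for 5 days in embryonic stem cell medium, 3 each with anti-CD40 at 5 µg/ml plus mouse IL-4 at 80 ng/ml (CD40), with CpG oligonucleotide at 2 µM (CpG) or with lipopolysaccharide at 25 µg/ml (LPS). Whether IL-4 was also added to CpG and LPS cannot be read from the labels with certainty. The other libraries were 3 of germinal centre (GC) B cells and 3 of naive B cells, sorted without culture as far as the sample labels say. All came from 3-month-old male mice, whose spleens were taken 9 days after immunisation with sheep red blood cells, so that the naive cells also came from immunised animals. The mouse strain is not given in the sources used here. Each group has libraries lettered A, B and C, and what a letter stands for is not given, so a p-value here measures only how libraries differ, and those of a letter may share a source. Fewer cells of a type and less RNA per cell cannot be told apart in such bulk samples.

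Ribosomes are built in the nucleolus, where RNA polymerase I transcribes ribosomal RNA, small nucleolar RNA-protein particles (snoRNPs) modify it, and large complexes cleave it and fold it into the precursors of both subunits. The genes for these factors are known targets of the transcription factor Myc, which binds the E-box letters CACGTG. Resting B cells are known for few ribosomes and small nucleoli, and lymphocytes that enter growth after stimulation enlarge both.

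The promoters of Nop2, Utp4, Wdr43 and Gar1 are printed because they hold the letters of the E-box or of the ETS core motif, in a pair of genes of ribosomal RNA modification (Nop2, Gar1) and a pair of small subunit processing (Utp4, Wdr43). The sequences are from RefSeq on GRCm38.p6 and run from 250 bases before to 30 bases after the start site, 5′ to 3′ on the gene's strand, with the motifs in capitals. They cover chr6:125131633-125131912 (plus strand) for Nop2, chr8:106893390-106893669 (plus) for Utp4, chr17:71615965-71616244 (plus) for Wdr43 and chr3:129831367-129831646 (minus) for Gar1.
Nop2: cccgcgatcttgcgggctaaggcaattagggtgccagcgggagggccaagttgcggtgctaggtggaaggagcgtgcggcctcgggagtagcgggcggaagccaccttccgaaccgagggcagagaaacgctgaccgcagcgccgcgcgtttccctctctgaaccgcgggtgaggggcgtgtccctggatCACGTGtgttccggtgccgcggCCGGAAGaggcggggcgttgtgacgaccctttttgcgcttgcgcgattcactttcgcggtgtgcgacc
Utp4: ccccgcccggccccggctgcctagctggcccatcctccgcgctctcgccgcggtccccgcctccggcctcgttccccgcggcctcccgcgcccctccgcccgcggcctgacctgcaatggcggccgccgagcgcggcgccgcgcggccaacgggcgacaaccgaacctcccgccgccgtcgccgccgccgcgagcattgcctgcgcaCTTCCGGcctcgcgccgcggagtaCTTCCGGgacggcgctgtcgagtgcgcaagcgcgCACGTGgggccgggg
Wdr43: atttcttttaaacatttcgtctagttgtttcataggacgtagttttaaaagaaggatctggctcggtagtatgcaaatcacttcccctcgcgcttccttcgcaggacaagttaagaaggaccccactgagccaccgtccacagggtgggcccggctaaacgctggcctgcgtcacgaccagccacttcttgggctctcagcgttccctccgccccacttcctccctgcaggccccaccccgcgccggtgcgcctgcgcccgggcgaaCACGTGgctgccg
Gar1: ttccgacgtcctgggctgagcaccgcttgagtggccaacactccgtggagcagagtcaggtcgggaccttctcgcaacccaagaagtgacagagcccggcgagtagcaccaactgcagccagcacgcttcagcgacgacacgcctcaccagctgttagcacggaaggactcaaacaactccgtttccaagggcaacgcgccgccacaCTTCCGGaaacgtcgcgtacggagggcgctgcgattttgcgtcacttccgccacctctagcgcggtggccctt

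RefSeq start sites were at hand for 30 of the 36 genes, in 34 windows. Rrs1, Npm1, Rrp12, Fbl, Srm and Bop1 had no entry. The E-box CACGTG, which reads the same on both strands, stood in 6 of the 34 windows (17.6%, against 6.79% of all 32851 RefSeq windows of this length), at Nme1, Nop2, Pes1, Utp4 and Wdr43. The ETS core CCGGAAG, or CTTCCGG on the other strand, stood in 10 of the 34 windows (29.4%, against 8.45% of all windows). Those windows belong to Gar1, Nhp2, Noc2l, Nolc1, Nop2, Polr1c, Ppan, Utp4 and Wdr74. The windows of Noc2l overlap and hold the same ETS match, which is counted in both. E-box and ETS letters do not overlap in these windows, and a match describes letters only. The E-box genes did not share a pattern of calls, since Utp4 was called higher in both GC and activated cells, Wdr43 in GC cells, Nop2 in activated cells, and Nme1 and Pes1 in neither.

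Library totals ran from 25397624 to 36272197 counts. Markers told GC from naive libraries as labelled: GC libraries summed 2063 to 2323 CPM over 6 germinal centre markers against 71.4 to 129 CPM in naive libraries, and 312 to 442 CPM over 6 follicular markers against 6888 to 8577 CPM in naive libraries. The activated libraries summed 500.4 to 1443 CPM over the follicular and 485 to 1090 CPM over the germinal centre markers. The T cell list reached 391 to 809 CPM in activated libraries through Thy1 (mean 540 CPM), with 2 of its 6 genes at a mean of 1 CPM or more and Cd4 at 0 in the libraries lettered A and B. No gene of any marker list was called between CD40, CpG and LPS libraries (fit of 15 libraries without a block), and the plasma, follicular and T cell sums followed the letter instead. Whether stimulus and letter were exchanged in some activated libraries could not be checked, so every value by stimulus or by letter rests on the titles as given. Naive replicate B stood apart, with 306 CPM of erythroid markers and 11523 genes detected, against 29.2 CPM and 13920 genes in naive A and 3.30 CPM and 18866 genes in naive C. Isolation stress genes such as Fos and Hspa1a summed 394 to 640 CPM in activated and 364 to 405 CPM in GC libraries, against 2401 to 9267 CPM in naive libraries, and their part in the differences from naive cells was not tested. Dividing cell markers summed 1134 to 1618 CPM in activated and 2746 to 3074 CPM in GC libraries, against at most 47.2 CPM in naive libraries, and their part in the differences between groups was not tested.

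As a group the 36 genes took 0.542% to 0.649% of all counts in the 9 activated libraries and 0.559% to 0.598% in GC libraries, against 0.328% to 0.434% in naive libraries. Every activated and every GC library lay above every naive one. Much of this sum was Ncl and Npm1, and without them the other genes summed 3226 to 4238 CPM in activated libraries and 3138 to 3349 CPM in GC libraries, against 2244 to 3286 CPM in naive libraries, so the ranges then overlapped through naive B at 3286 CPM. For the median of the 35 genes, on the scale of log2 CPM over the gene's own mean, activated libraries ran from -0.09 to 0.24, GC libraries from -0.16 to -0.02 and naive libraries from -0.53 to -0.11. Among the naive libraries, B was the highest for 22 of the 35 genes (62.9%, against 29.7% of all genes tested). Naive C was the lowest for 20 of them (57.1%, against 14.4% of all genes tested).

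**Figure D1:**
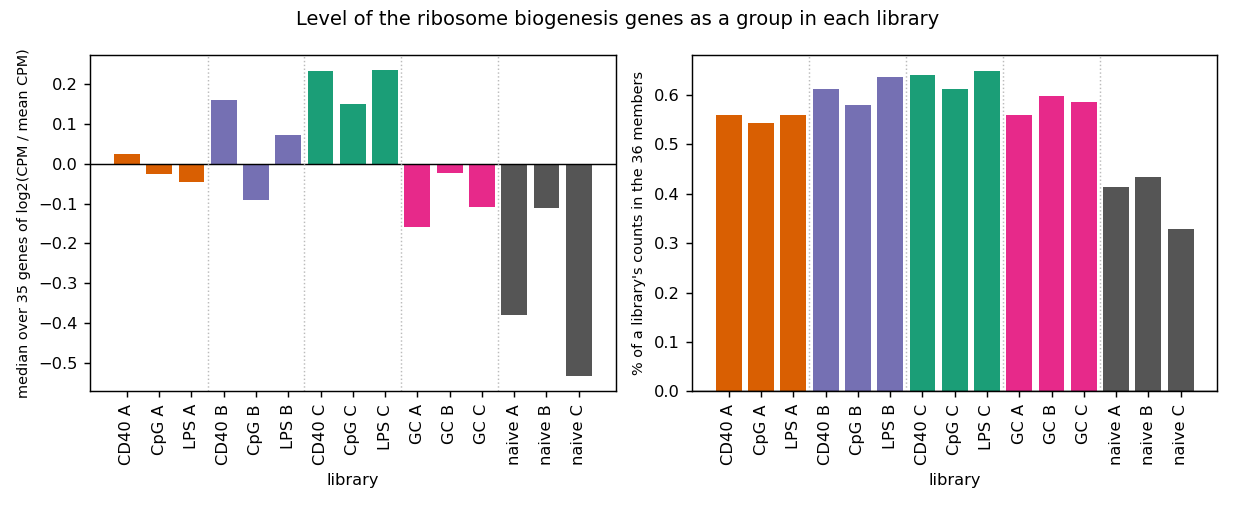
Level of the ribosome biogenesis genes in each of the 15 libraries. Left, the median over 35 genes of log2(CPM / the gene's mean CPM); right, the percentage of all counts of a library in the 36 genes, which is 0.542% to 0.649% in activated, 0.559% to 0.598% in GC and 0.328% to 0.434% in naive libraries. Bars are single libraries, coloured by activated letter (A, B, C), GC and naive.

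**Figure D2:**
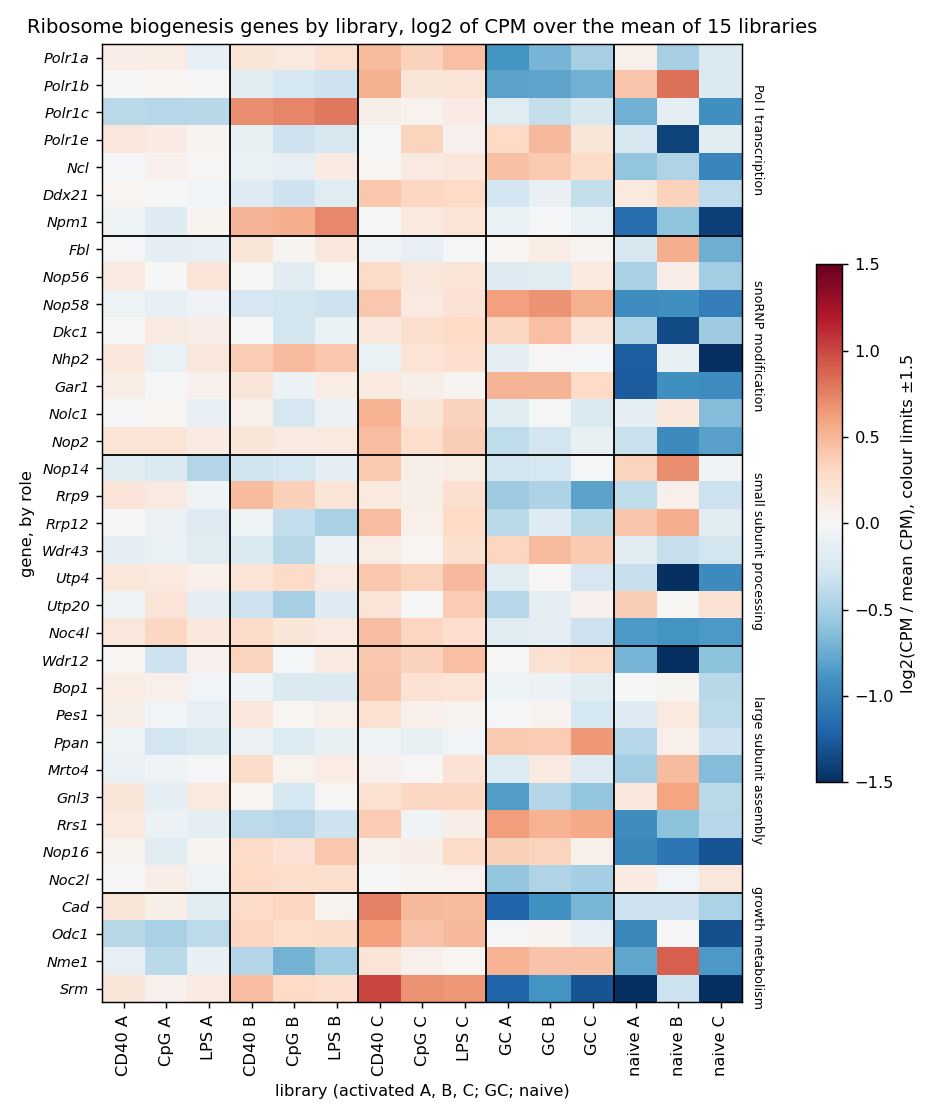
The 35 genes tested, one row each and grouped by role, in the 15 libraries. Colour gives log2(CPM / the gene's mean CPM), with limits of ±1.5; naive libraries are low for Nop58, Gar1 and Nop16, and Polr1c and Npm1 are high in the activated B libraries.

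GC cells, which divide and mutate their antibody genes in the germinal centre, were first set against naive cells. Of the 35 genes, 13 rose and 4 fell in GC cells (17.9% of all 17144 genes tested were called higher, 16.5% lower and 34.5% either way; a call is an adjusted p under 0.05 over all genes tested). The median log2 fold change of the 35 was 0.30, against 0.00 over all genes tested. Leaving out 1 library moved it between 0.18 (without naive A) and 0.53 (without naive B), and without naive C it was 0.23, against 0.24 over all genes. The largest rises were in Nop58 and Gar1, parts of the 2 classes of snoRNP, and in Nop16, a large subunit factor. Polr1b, the second largest subunit of RNA polymerase I, fell most. Of the 17 calls, 13 held in every fit that left out 1 library. Those of Polr1e, Utp4, Gnl3 and Cad did not, with adjusted p up to 0.0566, 0.0902, 0.116 and 0.29. Without naive B there were 19 higher and 3 lower, and with upper quartile scaling 12 higher and 7 lower. Over all genes tested these fits called 3309 higher and 3364 lower, and 2897 higher and 3097 lower, against 3076 and 2835 as reported.

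For activated against naive cells, counts of the 3 libraries of a letter were summed, so that each letter counted once. Of the 35 genes, 14 rose and none fell (17.9% of all 16029 genes tested were called higher, 12.5% lower and 30.5% either way). The median log2 fold change was 0.47, against 0.19 over all genes tested. It was 0.74 against 0.26 without naive B and 0.45 against 0.36 without naive C. With no filter on low counts the order turned, at 0.53 for the 35 and 0.62 over all genes. Srm, which makes spermidine, rose most, followed by Nop16 and Wdr12 of the large subunit pathway. The count of higher genes was 24 without naive B and 8 without the activated libraries lettered C. Over all genes tested 4134 and 2062 were higher in these fits, against 2874 as reported. The calls of Dkc1, Nhp2, Utp4, Wdr12, Rrs1 and Cad were lost in at least 1 leave-out fit, with adjusted p up to 0.0501, 0.121, 0.0694, 0.097, 0.0816 and 0.0546, and the other 8 held in all 6.

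Activated cells were also set against GC cells. Of the 35 genes, 8 were higher in activated cells and 3 lower (14.3% of all genes tested were called higher, 10.6% lower and 24.9% either way). The count of lower genes is near that background. The median log2 fold change was 0.22, against 0.07 over all genes. It was 0.11 without activated C, and with no filter on low counts it was 0.21, against 0.25 over all genes. Srm and Cad, both growth enzymes, and Polr1a, the catalytic subunit of RNA polymerase I, were the most raised in activated cells. Rrs1, Nop58 and Ppan were the ones lower. Only the calls of Polr1a, Rrp9, Noc2l and Cad held in all 6 leave-out fits. With the letter as a replicate block 5 genes were higher and 1 lower. The genes higher numbered 4 without activated C, GC A or GC C, 5 without activated A or GC B and 7 without activated B. No gene was lower without activated A, activated B or any GC library, and 3 were lower without activated C. With other scalings there were 6 higher and 4 lower (DESeq2 size factors) or 7 and 4 (upper quartile). Over all genes tested 2290 were higher and 1702 lower as reported, and 1734 and 1396 with the replicate block. The other scalings gave 2211 and 1856 or 2245 and 1814 over all genes. The leave-out fits gave 1396 to 1564 higher and 1007 to 1295 lower over all genes.

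Calls in GC cells and in activated cells share the same naive libraries, so the 2 are not independent and their values are only set side by side. Noc4l, Nop58, Rrs1, Ncl, Npm1, Dkc1, Gar1, Utp4, Wdr12 and Nop16 were called higher in both. Ppan, Polr1e and Wdr43 were called higher in GC but not in activated cells, and Srm, Nhp2 and Nop2 in activated but not in GC cells. Set directly against each other, GC and activated cells differed by a call for Ppan and Srm and not for Polr1e, Wdr43, Nhp2 and Nop2 (edgeR adjusted p = 0.612, 0.053, 0.609 and 0.0599). Cad was called lower in GC and higher in activated cells. Polr1c, Ddx21, Fbl, Nop56, Nolc1, Nop14, Rrp12, Utp20, Bop1, Pes1, Mrto4, Odc1 and Nme1 were called in none of the 3 comparisons, which does not show that they were level.

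**Figure D3:**
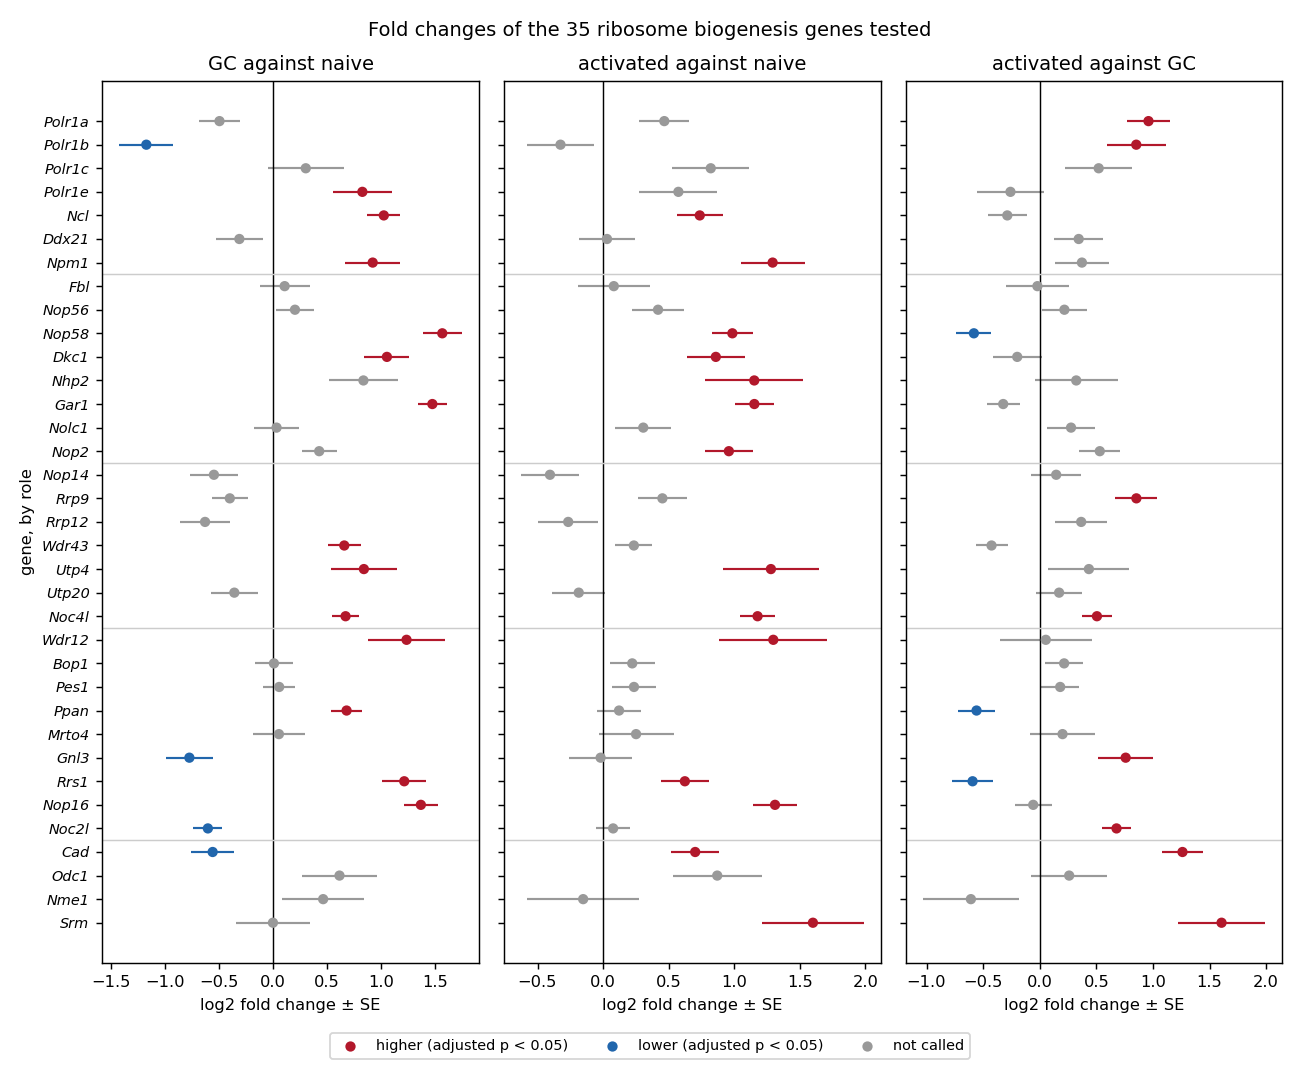
Log2 fold changes ± SE of the 35 genes in GC against naive, activated against naive and activated against GC cells, by role. Red points are called higher and blue points lower at an adjusted p under 0.05 (edgeR quasi-likelihood test over all genes); 13 are red and 4 blue in the first panel, 14 and 0 in the second, 8 and 3 in the third.

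Of the genes of ribosomal RNA transcription, Npm1 (nucleophosmin, ENSMUSG00000057113, chromosome 11, 33152287 to 33163206), a nucleolar chaperone, had the highest level per length, at 449 CPM per kb of exon over all libraries. It had 1116, 1169.7 and 1113 CPM in GC libraries, against 548, 790.2 and 454 CPM in naive libraries A, B and C. All GC libraries lay above all naive ones (log2 fold change 0.92 ± 0.25, edgeR adjusted p = 0.0109). Activated libraries ran from 1044 to 1979 CPM with a median of 1329.8, also above every naive library (log2 fold change 1.29 ± 0.24, edgeR adjusted p = 0.00374). Pseudogenes of Npm1 held reads equal to 3.31% of its own, so its value carries that uncertainty.

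Ncl (nucleolin, ENSMUSG00000026234, chromosome 1, 86344719 to 86359400), an abundant nucleolar RNA-binding protein, followed at 97.9 CPM per kb. It had 1353, 1305 and 1207 CPM in GC libraries, against 660.4, 731 and 506 CPM in naive libraries, with no overlap (log2 fold change 1.03 ± 0.15, edgeR adjusted p = 0.000116). The activated range was 912 to 1124 CPM with a median of 1014, again clear of the naive libraries (log2 fold change 0.74 ± 0.17, edgeR adjusted p = 0.0109). Small RNA genes, among them Snora75, lie in the exons counted for Ncl.

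The subunits of RNA polymerase I itself did not move together. Polr1a (ENSMUSG00000049553, chromosome 6, 71909053 to 71984935), which carries the active site, had 65.8 to 100.1 CPM with a median of 81.5 in activated libraries, against 38.6, 44.1 and 50.9 CPM in GC libraries. Every activated library was above every GC library (log2 fold change 0.96 ± 0.19, edgeR adjusted p = 0.00554). Its naive libraries had 75.7, 51.0 and 61.7 CPM, all above the GC libraries, naive B by a narrow margin, without a call (log2 fold change -0.50 ± 0.19, edgeR adjusted p = 0.0541). Polr1b (ENSMUSG00000027395, chromosome 2, 129100995 to 129126594) had 28.0, 28.3 and 29.7 CPM in GC libraries, against 65.3, 86.4 and 42.0 CPM in naive libraries. It fell in GC cells without overlap (log2 fold change -1.17 ± 0.25, edgeR adjusted p = 0.00203), while activated libraries ran from 39.4 to 70.8 CPM with a median of 48.9 and overlapped the naive ones (log2 fold change -0.32 ± 0.26, edgeR adjusted p = 0.389). Transcripts of Plekha5 share about 105 bases with those of Polr1b, so its reads are uncertain to that extent.

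Polr1c, a subunit shared with RNA polymerase III, had 89.3 ± 35.9 CPM in activated letters and 64.3 ± 4.04 CPM in GC libraries, against 52.1 ± 15.1 CPM in naive libraries (SD, n = 3 each). It was not called against naive cells in GC (log2 fold change 0.30 ± 0.35, edgeR adjusted p = 0.546) or in activated cells (log2 fold change 0.82 ± 0.30, edgeR adjusted p = 0.0611), and its activated spread followed the letters described below. Polr1e, the mouse PAF53 subunit, rose in GC cells (log2 fold change 0.83 ± 0.27, edgeR adjusted p = 0.0285), where it had 36.8, 42.0 and 34.0 CPM, against 25.3, 11.4 and 26.9 CPM in naive libraries. Ddx21, an RNA helicase of the nucleolus, stood between 176 and 209 CPM in GC and between 172 and 285 CPM in naive libraries, which overlap, and was called in neither comparison with naive cells.

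The 8 genes of ribosomal RNA modification all had a positive fold change in GC and in activated cells against naive cells. Of them 3 were called higher in GC and 5 in activated cells (17.9% of all genes tested were called higher in each comparison). Their median log2 fold changes were 0.63 and 0.91, against 0.00 and 0.19 over all genes. Rrp9, a protein of the U3 snoRNP, is placed with the small subunit genes below, and its GC libraries lay below its naive ones. SnoRNPs of the box C/D class place methyl groups on ribosomal RNA through Fbl, with Nop56 and Nop58 as its scaffold. Those of the box H/ACA class make pseudouridine through Dkc1, with Nhp2, Gar1 and a further small protein as partners.

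Nop58 (ENSMUSG00000026020, chromosome 1, 59684971 to 59719044) had 208, 218 and 197 CPM in GC libraries, against 71.1, 72.3 and 66.6 CPM in naive libraries. The 3 naive values lay within 6 CPM of each other and the groups were far apart (log2 fold change 1.57 ± 0.18, edgeR adjusted p = 1.18e-05). Activated libraries ran from 109 to 179.9 CPM with a median of 129, between the GC and the naive libraries with no overlap with either (log2 fold change 0.99 ± 0.15, edgeR adjusted p = 0.00134 against naive, and log2 fold change -0.58 ± 0.15, edgeR adjusted p = 0.0212 against GC). The call against GC was lost in 5 of 6 leave-out fits, with adjusted p up to 0.0907. Its partner Nop56 had 244, 245 and 308 CPM in GC libraries, against 198, 298 and 194 CPM in naive libraries, which overlap (log2 fold change 0.20 ± 0.17, edgeR adjusted p = 0.397), and 249 to 339.8 CPM with a median of 307 in activated libraries (log2 fold change 0.42 ± 0.20, edgeR adjusted p = 0.143). Fbl, the methyltransferase, had 179 ± 15.7 CPM in activated letters and 188 ± 5.98 CPM in GC libraries, against 175 ± 79.6 CPM in naive libraries (SD, n = 3 each), and was called in neither. Small nucleolar RNA genes lie within counted exons of both Nop56 and Nop58.

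Gar1 (ENSMUSG00000028010, chromosome 3, 129824912 to 129831396) had 91.3, 91.9 and 79.3 CPM in GC libraries, against 27.1, 33.9 and 33.4 CPM in naive libraries, far apart from each other (log2 fold change 1.48 ± 0.13, edgeR adjusted p = 8.61e-07). Activated libraries ran from 60.5 to 73.0 CPM with a median of 68.3, between the other 2 groups (log2 fold change 1.15 ± 0.15, edgeR adjusted p = 0.000388). Dkc1, the pseudouridine synthase, rose in both (1.06 ± 0.21 in GC and 0.86 ± 0.22 in activated cells, edgeR adjusted p = 0.00119 and 0.016). Nhp2 (ENSMUSG00000001056, chromosome 11, 51619735 to 51623714) had 87.0, 96.9 and 94.3 CPM in GC libraries, against 40.8, 88.9 and 25.9 CPM in naive libraries, where naive B lay within the GC range (log2 fold change 0.84 ± 0.32, edgeR adjusted p = 0.0559). Its activated range was 89.6 to 134 CPM with a median of 111, above every naive library (log2 fold change 1.15 ± 0.37, edgeR adjusted p = 0.0415). Nop2, which methylates a cytosine of the large ribosomal RNA in yeast, rose in activated cells (log2 fold change 0.96 ± 0.18, edgeR adjusted p = 0.00388). Nolc1, a chaperone of snoRNPs, was called in neither comparison.

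Among the 7 small subunit genes, 3 rose in GC cells, and 2 in activated cells (17.9% of all genes tested were called higher in each comparison). Noc4l (ENSMUSG00000033294, chromosome 5, 110648418 to 110653417), the counterpart of a yeast nucleolar complex protein, had 63.3, 63.9 and 57.1 CPM in GC libraries, against 38.8, 38.0 and 38.8 CPM in naive libraries. The naive libraries differed by less than 1 CPM, and no GC library came near them (log2 fold change 0.67 ± 0.12, edgeR adjusted p = 0.000581). Activated libraries ran from 77.5 to 97.5 CPM with a median of 84.1, above both (log2 fold change 1.18 ± 0.13, edgeR adjusted p = 0.000177 against naive and log2 fold change 0.51 ± 0.13, edgeR adjusted p = 0.0185 against GC). The second of these calls was lost in 5 of 6 leave-out fits, with adjusted p up to 0.111.

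Wdr43 (ENSMUSG00000041057, chromosome 17, 71615895 to 71659031), a member of an early processing complex that joins the growing transcript, had 174, 194 and 183 CPM in GC libraries, against 124, 109 and 115 CPM in naive libraries, with no overlap (log2 fold change 0.66 ± 0.15, edgeR adjusted p = 0.00397). Its activated range of 104 to 164 CPM with a median of 129 overlapped the naive libraries (log2 fold change 0.23 ± 0.14, edgeR adjusted p = 0.249). Utp4, of the same complex, had 45.7, 51.9 and 43.3 CPM in GC libraries, against 40.6, 11.5 and 26.5 CPM in naive libraries (log2 fold change 0.84 ± 0.31, edgeR adjusted p = 0.0455), and 54.1 to 72.0 CPM with a median of 59.4 in activated libraries (log2 fold change 1.28 ± 0.36, edgeR adjusted p = 0.0247). The groups did not overlap, but the spread of the naive libraries was wide, and leaving out activated B, activated C or naive C ended the second call.

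Nop14, Rrp12 and Utp20, large scaffold and export factors of the small subunit precursor, had negative fold changes in both comparisons with naive cells and no call. For Rrp12 the values were 32.2, 37.2 and 32.2 CPM in GC libraries, against 56.8, 62.1 and 38.2 CPM in naive libraries, just without overlap (log2 fold change -0.63 ± 0.23, edgeR adjusted p = 0.0506). Utp20 had 34.5, 42.3 and 48.4 CPM in GC and 59.9, 46.7 and 53.7 CPM in naive libraries, which overlap (log2 fold change -0.36 ± 0.22, edgeR adjusted p = 0.23). Rrp9, a protein of the U3 snoRNP, was higher in activated than in GC cells (log2 fold change 0.85 ± 0.19, edgeR adjusted p = 0.00853). Its GC libraries had 37.4, 39.2 and 30.9 CPM, all below the naive libraries at 41.5, 57.2 and 43.2 CPM. Its activated range overlapped the naive one, and Rrp9 was called in neither comparison with naive cells.

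Of the 9 large subunit genes tested, 4 rose and 2 fell in GC cells, and 3 rose in activated cells. Of all genes tested 17.9% were called higher in each comparison, and 16.5% lower in GC cells. The 2 that fell are near that share. Nop16 (ENSMUSG00000025869, chromosome 13, 54584185 to 54590090) had 78.2, 76.8 and 64.0 CPM in GC libraries, against 31.2, 28.7 and 24.8 CPM in naive libraries (log2 fold change 1.37 ± 0.16, edgeR adjusted p = 1.25e-05), and 54.2 to 80.6 CPM with a median of 65.2 in activated libraries (log2 fold change 1.31 ± 0.17, edgeR adjusted p = 0.000401). Its means were 67.7 ± 7.65 CPM in activated letters and 73.0 ± 7.84 CPM in GC libraries, against 28.2 ± 3.26 CPM in naive libraries (SD, n = 3 each). Rrs1 (ENSMUSG00000061024, chromosome 1, 9545408 to 9547455), which brings the 5S particle into the large subunit in yeast, had 84.4, 78.4 and 81.1 CPM in GC libraries, against 28.6, 35.7 and 40.7 CPM in naive libraries (log2 fold change 1.22 ± 0.20, edgeR adjusted p = 0.000303). Its activated libraries ran from 40.7 to 71.4 CPM with a median of 51.5, lower than every GC library (log2 fold change -0.59 ± 0.18, edgeR adjusted p = 0.0409, lost in 5 of 6 leave-out fits with adjusted p up to 0.158) and above every naive library by a narrow margin (log2 fold change 0.62 ± 0.18, edgeR adjusted p = 0.0294, lost without activated A, activated C or naive A).

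Ppan, a factor of large subunit assembly that carries 2 small nucleolar RNA genes within its counted exons, had 146, 145 and 175 CPM in GC libraries, against 82.6, 118 and 89.9 CPM in naive libraries (log2 fold change 0.68 ± 0.14, edgeR adjusted p = 0.00184). Activated libraries ran from 91.5 to 108 CPM with a median of 103, within the naive range and below every GC library (log2 fold change -0.56 ± 0.17, edgeR adjusted p = 0.0341). This last call was lost in all 6 leave-out fits, with adjusted p up to 0.138. Transcripts of Sec23ip and Gmeb1 share about 130 and 115 bases with those of Ppan, so its reads are uncertain to that extent.

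The complex that Pes1, Bop1 and Wdr12 form, which is required for a cut in the ribosomal RNA precursor, had 1 member called and 2 not. Wdr12 had 40.2, 47.3 and 49.2 CPM in GC libraries, against 24.8, 6.80 and 26.3 CPM in naive libraries, with naive B far below the others (log2 fold change 1.24 ± 0.36, edgeR adjusted p = 0.015), and 32.6 to 55.1 CPM with a median of 44.2 in activated libraries (log2 fold change 1.30 ± 0.41, edgeR adjusted p = 0.0384, lost without any 1 of the activated letters, with adjusted p up to 0.097). About 590 bases of Wdr12 transcripts are also found in those of Pms1, and about 565 in those of a pseudogene, Gm4879. Dnajb14 and Riok3 share about 120 and 115 bases with it, and Riok3 held reads equal to 334% of those of Wdr12. The reads of Wdr12 are uncertain to that extent. Pes1 had 123, 129.7 and 104 CPM in GC libraries, against 109, 139 and 95.3 CPM in naive libraries, overlapping throughout (log2 fold change 0.06 ± 0.15, edgeR adjusted p = 0.808), and 115 to 147 CPM with a median of 131 in activated libraries (log2 fold change 0.24 ± 0.17, edgeR adjusted p = 0.337). Pseudogenes of Pes1 held reads equal to 2.45% of its own. Bop1 was likewise not called, at 0.01 ± 0.17 in GC and 0.22 ± 0.17 in activated cells on the log2 scale.

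Noc2l and Gnl3 fell in GC cells and were not called in activated against naive cells. Noc2l (ENSMUSG00000095567, chromosome 4, 156236010 to 156247616), a nucleolar protein that also binds p53 and histones, had 91.7, 101 and 96.8 CPM in GC libraries, against 150.0, 134 and 155 CPM in naive libraries (log2 fold change -0.60 ± 0.13, edgeR adjusted p = 0.00265), and 133 to 169.9 CPM with a median of 143 in activated libraries, above GC (log2 fold change 0.68 ± 0.13, edgeR adjusted p = 0.00446) and not called against naive (log2 fold change 0.08 ± 0.13, edgeR adjusted p = 0.71). Its exons overlap 598 bases of Samd11 on the opposite strand, and whether counting used strand is not given, so reads of the 2 may be mixed. Gnl3 (nucleostemin, a nucleolar GTPase) had 58.3, 76.7 and 69.7 CPM in GC libraries, against 116, 156 and 78.2 CPM in naive libraries, below all of them, naive C by a narrow margin (log2 fold change -0.77 ± 0.22, edgeR adjusted p = 0.0133, lost without GC A, GC C or naive B). Activated libraries ran from 86.3 to 129 CPM with a median of 114, above every GC library (log2 fold change 0.76 ± 0.24, edgeR adjusted p = 0.0471, lost in all 6 leave-out fits with adjusted p up to 0.177). Small RNA genes, among them Snord19 and Snord69, lie in the exons counted for Gnl3. Mrto4 was called in none of the comparisons above. Wdr74 (ENSMUSG00000042729, chromosome 19, 8735827 to 8740624), a large subunit factor, had 13 counts over all 15 libraries and was not tested.

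Of the 4 growth enzymes, Srm and Cad rose in activated cells, Cad fell in GC cells, and Odc1 and Nme1 were not called. Of all genes tested 17.9% were called higher in activated cells and 16.5% lower in GC cells. Srm (ENSMUSG00000006442, chromosome 4, 148591503 to 148594993), spermidine synthase, had 100.4 to 191 CPM with a median of 118 in activated libraries, against 41.5, 51.5 and 39.1 CPM in GC libraries and 26.8, 76.4 and 29.1 CPM in naive libraries. Every activated library was above every GC and naive library (log2 fold change 1.60 ± 0.39, edgeR adjusted p = 0.0124 against naive, and log2 fold change 1.61 ± 0.39, edgeR adjusted p = 0.014 against GC). The call against GC was lost without activated C, GC A or GC C, with adjusted p up to 0.0625. In GC against naive cells Srm was not called (SE 0.34 on the log2 scale, edgeR adjusted p = 1). Odc1 (ENSMUSG00000011179, chromosome 12, 17544794 to 17551505), ornithine decarboxylase, which feeds Srm, had 267, 281 and 249.8 CPM in GC libraries, against 139, 271 and 109.6 CPM in naive libraries, where naive B lay among the GC values (log2 fold change 0.62 ± 0.35, edgeR adjusted p = 0.196). Its activated range of 194 to 419 CPM with a median of 332 overlapped naive B but lay above the other naive libraries (log2 fold change 0.87 ± 0.34, edgeR adjusted p = 0.0813). A pseudogene of Odc1, Gm7993, held reads equal to 17.0% of those of Odc1, so the split of reads between the 2 is uncertain.

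Cad (ENSMUSG00000013629, chromosome 5, 31054780 to 31078479), the first enzyme of pyrimidine synthesis, had 120.0 to 229 CPM with a median of 165 in activated libraries, against 58.8, 72.0 and 83.9 CPM in GC libraries and 109, 109 and 97.7 CPM in naive libraries. The 3 groups did not overlap, with activated cells highest and GC cells lowest. Activated cells were above GC cells (log2 fold change 1.26 ± 0.19, edgeR adjusted p = 0.000991) and above naive cells (log2 fold change 0.70 ± 0.18, edgeR adjusted p = 0.0175), and the fall in GC against naive cells (log2 fold change -0.56 ± 0.20, edgeR adjusted p = 0.0417) was lost in each of 6 leave-out fits. Nme1, a nucleoside diphosphate kinase, had 80.8, 75.8 and 75.6 CPM in GC libraries, against 32.8, 105 and 30.9 CPM in naive libraries, with naive B above all GC libraries (log2 fold change 0.46 ± 0.38, edgeR adjusted p = 0.376). Its reads may be shared with a readthrough gene on the same strand, Gm20390.

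**Figure D4:**
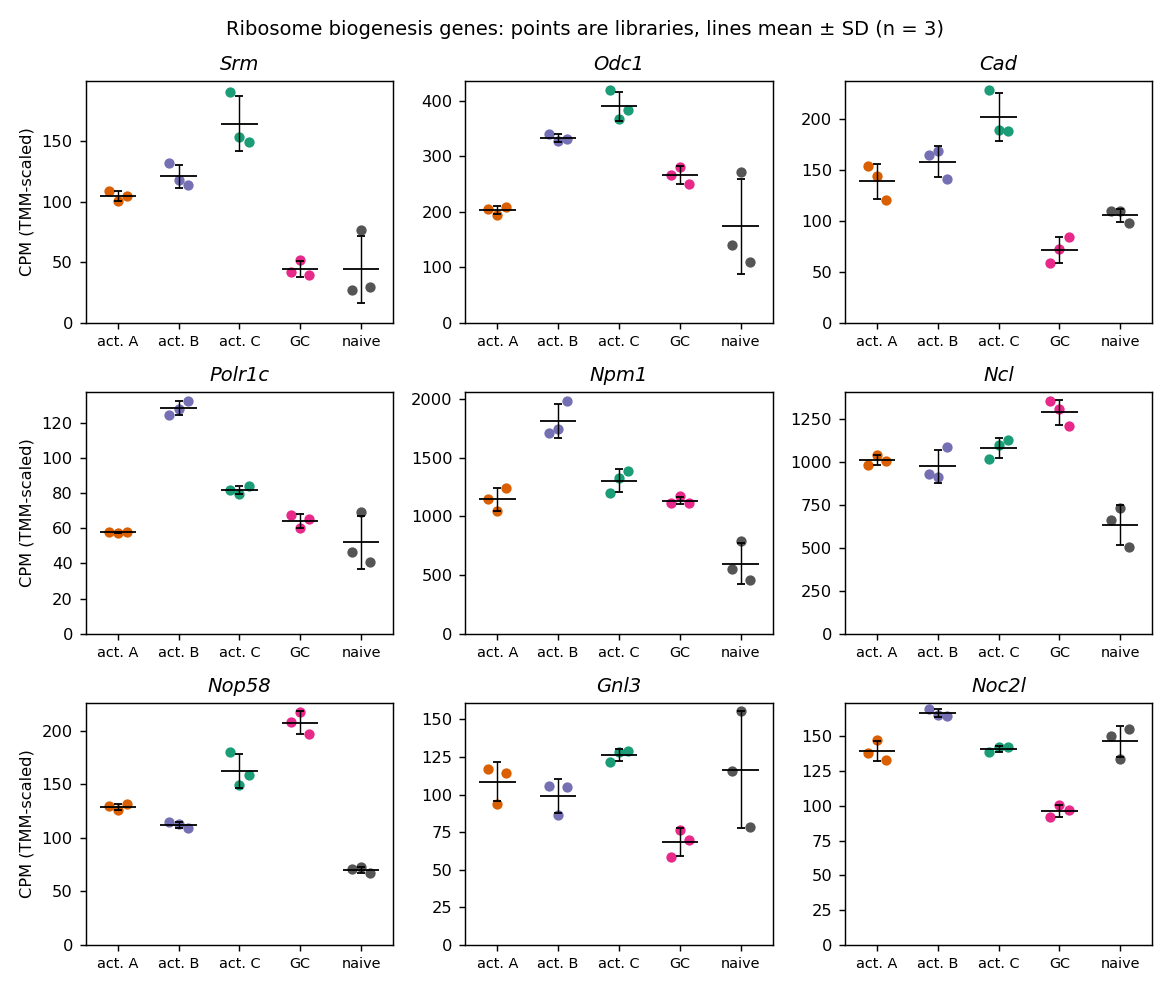
CPM of 9 genes in each library, with points for libraries and lines for mean ± SD (n = 3) in the activated libraries by letter (A, B, C), in GC and in naive libraries. Srm and Cad are highest in activated C, Polr1c and Npm1 in activated B, and Ncl and Nop58 in GC libraries.

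By stimulus, 15 genes rose with CD40, 13 with CpG and 12 with LPS against naive cells and none fell (19.8%, 19.7% and 19.5% of all 17144 genes tested were called higher, and 14.3%, 14% and 14.2% lower, 34.1%, 33.6% and 33.7% either way). Ncl, Npm1, Nop58, Dkc1, Nhp2, Gar1, Nop2, Utp4, Noc4l, Wdr12, Nop16 and Srm were called with each of the 3. Rrp9 and Rrs1 were called with CD40 only and Cad with CD40 and CpG, and the difference between stimuli was not called for any of them. For Srm the fold changes on the log2 scale were 1.71 ± 0.35 with CD40, 1.49 ± 0.35 with CpG and 1.48 ± 0.35 with LPS (edgeR adjusted p = 0.00198, 0.00481 and 0.00491). The call of Nhp2 was lost without naive A with each stimulus, and without CD40 B and CpG B in theirs. Rrp9 with CD40 was lost without CD40 B, naive A or naive C, and Wdr12 with CpG without CpG C. Without naive B the genes higher numbered 22, 17 and 18, and without naive C 2 genes were lower with CpG and 2 with LPS. When only the 6 libraries of each comparison were fitted, 8 genes were higher with each stimulus. Over all genes tested those restricted fits called 1673, 1712 and 1854 higher, and the fits without naive B 3653, 3599 and 3639. As reported, 3389, 3373 and 3338 of all genes were higher. Without naive C, 2096 and 2165 of all genes were lower with CpG and LPS, against 2395 and 2441 as reported.

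No gene of the 35 was called between stimuli. In the fit of 15 libraries without a block, 0 of all 17144 genes (0%) were called in each of the 3 comparisons by edgeR's quasi-likelihood test, and none of the 35 had an unadjusted p under 0.05. Log2 fold changes ran from -0.06 to 0.27 for CD40 against CpG, from -0.19 to 0.29 for CD40 against LPS and from -0.20 to 0.16 for CpG against LPS, with SEs between 0.12 and 0.38. DESeq2 also called none of the 35, and 0, 0 and 1 of all genes. With the letter as a replicate block within the 9 activated libraries, the SEs of the 35 lay between 0.06 and 0.11, and 27, 44 and 45 of all genes were called for CD40 against CpG, CD40 against LPS and CpG against LPS. None of them was among the 35, of which 9, 8 and 7 had an unadjusted p under 0.05. The nearest to a call in that fit was Cad in CD40 against LPS (edgeR adjusted p = 0.0579).

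The activated libraries differed by letter far more than by stimulus. For the median gene of the 35 the letter held 74.4% of the variance of log2 CPM among the 9 libraries and the stimulus 11.3%, against 55.0% and 11.7% for the median of all genes tested. Letter C was the highest for 27 of the 35 genes and the lowest for none, A was the lowest for 18 and the highest for none, and B was the lowest for 17 and the highest for 8. Over all genes tested the highest letter was A for 31.6%, B for 36.3% and C for 32.1%, and the lowest was A for 29.1%, B for 36.6% and C for 34.3%. For 19 of the 35 genes the order of the letters was the same in all 3 stimuli. This was not counted over all genes tested, so it cannot be read as particular to these genes.

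In A against C, 19 genes were lower, none was higher, and all 35 fold changes were negative (11.5% of all 15727 genes tested were called lower, 11.9% higher and 23.4% either way). The median log2 fold change was -0.19, against 0.02 over all genes. In B against C, 22 were lower and 5 higher (17.5% of all genes tested were lower, 17.3% higher and 34.8% either way), with a median of -0.26 against 0.02 over all genes. In A against B, 10 were higher and 10 lower (16.6% and 14.5% of all genes tested, 31.1% either way), with a median of -0.02 against 0.01, which leaving out 1 library moved between -0.04 and 0.02. Leaving out 1 library kept 10 of the 19 calls of A against C, 20 of the 27 of B against C and 6 of the 20 of A against B in every such fit. In A against B 3 genes were higher without CpG A or CpG B, and in B against C 3 without CD40 C. Over all genes tested those fits called 2018, 1965 and 2406 higher, against 2605 in A against B and 2721 in B against C as reported. The 3 libraries of a letter may share a source, so these tests set one letter's libraries against another's and do not speak for a condition.

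Odc1 showed the widest gap between A and C. It had 205, 194 and 208 CPM in the CD40, CpG and LPS libraries of A and 340.5, 327 and 332 CPM in those of B, against 419, 367 and 384 CPM in C. Letters did not overlap (log2 fold change -0.95 ± 0.06, edgeR adjusted p = 1.11e-12 for A against C, and log2 fold change -0.72 ± 0.06, edgeR adjusted p = 1.78e-10 for A against B). Srm had 109, 100.4 and 105 CPM in A and 132, 118 and 114 CPM in B, against 191, 153 and 149.8 CPM in C (log2 fold change -0.65 ± 0.07, edgeR adjusted p = 3.41e-08 for A against C). Cad had 154, 144 and 120.0 CPM in A and 165, 168 and 141 CPM in B, against 229, 189 and 188 CPM in C (log2 fold change -0.54 ± 0.07, edgeR adjusted p = 4.55e-07 for A against C). In each of these enzymes A had the lowest and C the highest mean, and all C libraries lay above all others.

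Polr1c and Npm1 went another way. Polr1c had 58.0, 57.2 and 57.8 CPM in A and 125, 128 and 133 CPM in B, against 82.0, 79.6 and 84.0 CPM in C, with under 1 CPM between the A libraries. It was lower in A than in B (log2 fold change -1.15 ± 0.07, edgeR adjusted p = 1.32e-12) and higher in B than in C (log2 fold change 0.65 ± 0.07, edgeR adjusted p = 3.68e-08), and the letter held 99.6% of its variance. Npm1 had 1144, 1044 and 1241 CPM in A and 1709, 1742 and 1979 CPM in B, against 1196, 1329.8 and 1383 CPM in C. B stood above both other letters without overlap (log2 fold change -0.66 ± 0.06, edgeR adjusted p = 8.03e-10 for A against B, and log2 fold change 0.47 ± 0.06, edgeR adjusted p = 2.38e-07 for B against C). Nhp2 had 125, 134 and 127 CPM in B, against 89.6, 111 and 114 CPM in C, again higher in B (log2 fold change 0.29 ± 0.08, edgeR adjusted p = 0.00638), a call lost without CpG B or CD40 C.

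Of the 17 genes lowest in B, 5 are given here by library. Ddx21 had 196, 182 and 197 CPM in B, against 297, 279 and 276 CPM in C (log2 fold change -0.57 ± 0.06, edgeR adjusted p = 1.34e-08). Rrp12 had 40.5, 32.9 and 30.4 CPM in B, against 58.8, 45.0 and 52.4 CPM in C (log2 fold change -0.59 ± 0.10, edgeR adjusted p = 2.6e-05). Nme1 had 51.8, 42.5 and 52.2 CPM in A and 41.6, 34.5 and 39.0 CPM in B, against 64.3, 59.1 and 57.3 CPM in C, in the order B, A, C with no overlap (log2 fold change 0.35 ± 0.09, edgeR adjusted p = 0.00424 for A against B, lost without LPS A, and log2 fold change -0.66 ± 0.09, edgeR adjusted p = 2.12e-06 for B against C). Rrs1 had 60.6, 51.5 and 49.5 CPM in A, against 41.7, 40.7 and 44.0 CPM in B (log2 fold change 0.35 ± 0.09, edgeR adjusted p = 0.00529, lost without CD40 B). Utp20 had 44.2, 52.9 and 42.0 CPM in A, against 37.3, 32.6 and 40.3 CPM in B (log2 fold change 0.34 ± 0.11, edgeR adjusted p = 0.0199, lost without CpG A or CpG B).

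**Figure D5:**
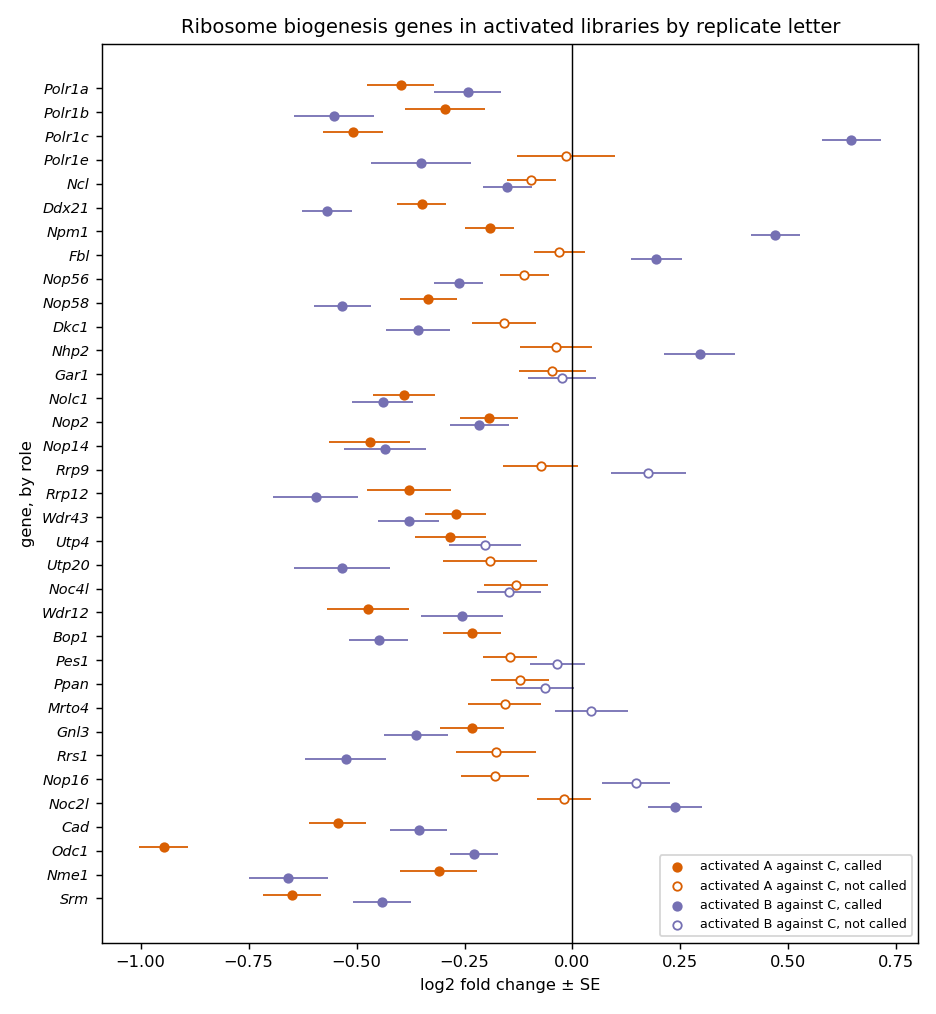
Log2 fold changes ± SE of the 35 genes between activated letters, A against C in orange and B against C in purple. Filled points are called (adjusted p under 0.05, edgeR quasi-likelihood test over all genes) and open points are not; all orange points lie below 0, and Polr1c and Npm1 are the purple points farthest above 0.

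Other lists moved with the letters. Plasma cell markers summed 2732 to 2869 CPM in A and 1802 to 1911 CPM in B, against 4599 to 6352 CPM in C. Dividing cell markers summed 1346 to 1540 CPM in A and 1134 to 1223 CPM in B, against 1565 to 1618 CPM in C. The part of either in the letter differences was not tested. Myc, the transcription factor named above, had 262, 270.0 and 256 CPM in A and 145, 157 and 141 CPM in B, against 188, 179 and 189.8 CPM in C (log2 fold change 0.50 ± 0.06, edgeR adjusted p = 4.92e-07 for A against C, and log2 fold change 0.83 ± 0.06, edgeR adjusted p = 4.98e-11 for A against B). Across groups Myc had 29.3, 38.3 and 26.6 CPM in GC libraries, against 199.7, 435 and 135 CPM in naive libraries (log2 fold change -3.03 ± 0.41, edgeR adjusted p = 6.71e-05). In activated against naive cells Myc was not called (log2 fold change -0.33 ± 0.40, edgeR adjusted p = 0.584). The naive libraries also had the highest sums of isolation stress genes, and their part in the naive values of Myc was not tested. Any part of Myc in the differences of the ribosome biogenesis genes was not tested either.

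A further 135 genes of this and linked pathways were also read, of which 133 were tested. They include 13 transcripts that host small nucleolar RNAs and 12 genes of polyamine and pyrimidine synthesis, which are described under other observations. In GC against naive cells 47 were higher and 13 lower (17.9% of all genes tested were higher and 16.5% lower). Of 22 further snoRNP factors and subunits of the RNA exosome, which trims ribosomal RNA ends, 15 were higher and 1, Exosc5, lower, with a median of 0.82 on the log2 scale. Of 39 further small subunit factors 10 were higher and 2 lower, and of 37 further large subunit factors 12 were higher and 1 lower. Of 12 further factors of RNA polymerase I 4 were higher and 2 lower. The host transcripts gave 1 higher and 5 lower, and the polyamine and pyrimidine genes 5 higher and 2 lower. Polr1d, a subunit shared with RNA polymerase III, had 249, 200.5 and 180.4 CPM in GC libraries, against 61.9, 51.1 and 70.3 CPM in naive libraries (log2 fold change 1.78 ± 0.21, edgeR adjusted p = 1.41e-05).

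In activated against naive cells 35 of the 133 were higher and 12 lower (17.9% and 12.5% of all genes tested). Pno1, a late factor of the small subunit, had 94.4 to 127 CPM with a median of 107 in activated libraries, against 25.0, 35.3 and 20.3 CPM in naive libraries (log2 fold change 2.07 ± 0.21, edgeR adjusted p = 0.000111). In activated against GC cells 8 were higher and 22 lower (14.3% and 10.6% of all genes tested), and the difference from the 35 was not tested. Rrp1b, a nucleolar protein of large subunit assembly, was higher in activated than in GC cells, at 93.4 ± 7.53 CPM in activated letters against 32.7 ± 5.87 CPM in GC libraries (SD, n = 3 each; log2 fold change 1.56 ± 0.29, edgeR adjusted p = 0.00336). Between letters the further genes had 4 higher and 42 lower in A against C (11.9% and 11.5% of all genes tested). They had 18 higher and 55 lower in B against C (17.3% and 17.5%), and 16 higher and 26 lower in A against B (16.6% and 14.5%). Wdr46, a small subunit factor, had 54.2, 56.3 and 52.4 CPM in A and 27.1, 22.4 and 26.2 CPM in B, against 64.9, 56.6 and 60.4 CPM in C (log2 fold change -1.27 ± 0.10, edgeR adjusted p = 5.85e-11 for B against C).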

How the data were processed

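Counts, whole numbers of reads per gene, were deposited by the authors for 54838 Ensembl genes in 15 libraries. Per the submitters' processing notes reads were aligned with STAR 2.7.10a to mm10/GRCm38 and counted with featureCounts 2.0.6, and DESeq2 is named. The annotation release and the use of strand and of reads with several matches are not given in the sources used here. GENCODE M21 named 54809 of the IDs. Counts were scaled by TMM, filtered with filterByExpr and then analysed with edgeR 4.0.16 under R 4.3.3 (robust quasi-likelihood fit, two-sided, Benjamini-Hochberg over all genes tested, threshold 0.05), and a gene past it is called here. The fits were 15 libraries with 1 mean per group; naive, GC and activated counts summed by letter; and the 9 activated libraries with letter and stimulus. CPM are counts divided by the TMM-scaled library size, on the usual CPM scale, and values of activated groups over letters are means of 3 letters. Totals of 25397624 to 36272197 counts make counting error small for the 35 genes, whose lowest count was 200 (Wdr12 in naive B). The spread between libraries therefore sets their precision. Other genes tested include some near 0 counts, such as Smox in naive libraries, where counting error is not small.

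The genes, their roles, the further lists and the comparisons were chosen with earlier results of these data known. Genes whose values are given in every library were, in each role, the 2 highest per kb of exon, and in each comparison the 3 called genes that rose and the 3 that fell most; of the further lists, the 2 called genes that rose and fell most among those over 5 CPM. Other genes of the 36 are given by role, with values chosen after they were seen. Same-lettered activated libraries deviated together (correlations of their deviations from 0.561 to 0.692 in 9 pairs). Same-lettered libraries of naive, GC and activated cells did not (-0.107 to 0.103 in 21 pairs), so pairing by letter was seen among the activated libraries only. The wide spread of the naive libraries could hide a shared source, so pairing across groups is not settled. No 2 libraries agreed within sampling noise. Alternatives were other scalings, no filter, DESeq2 1.42.0, a replicate block, restricted fits and leaving out each library. The procedure was tested on simulated counts.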

Additional observations from a re-analysis of the deposited data

How the results depend on the processing

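Limits come from 3 libraries or letters a group, from the wide spread of the naive libraries and from not knowing whether libraries of a letter share a source. Depth was not limiting for the 35 genes tested, and for Wdr74 it allows no statement. No fold change that was called among the 35 genes changed sign under the alternatives run, but medians near 0 did. The median of the 35 in A against B was -0.02 as reported and 0.00, 0.00 and 0.02 without LPS A, CD40 B and LPS B, that of CD40 against LPS was 0.06 and became -0.03 without CD40 C, and that of CpG against LPS was -0.05 and became 0.06 without LPS C and 0.01 without CpG B. Single genes were followed under the alternatives only for the 3 called genes at most that rose or fell most in a comparison. Of their values, 417 stayed on their side of the threshold and 36 fell short of it, 31 of them where a library was left out. Over all calls, those lost in at least 1 leave-out fit were 4 of 17 in GC and 6 of 14 in activated against naive cells. They were 7 of 11 in activated against GC cells, 14 of 20 in A against B, 9 of 19 in A against C and 7 of 27 in B against C. Counts that moved by over 1.5 times are given as genes higher or lower of 35. In GC against naive cells the genes lower numbered 4 as reported, 7 with upper quartile scaling, 2 when only the 6 libraries compared were fitted, and 2 to 5 over the leave-out fits. Over all genes tested 2835, 3097, 1807 and 1849 to 3364 were lower in the same fits. With only the libraries compared, 8 genes were higher with CD40 and 8 with CpG. Without naive C, 2 genes were lower with CpG and 2 with LPS, so these leave-out counts ran from 0 to 2. In activated against naive cells the genes higher ran from 8 to 24 over the leave-out fits, where 1976 to 4153 of all genes were higher. In activated against GC cells the genes higher numbered 5 and those lower 1 with the replicate block, and the genes lower 5 with DESeq2 and 6 when the activated groups were averaged in the fit of 15 libraries. The leave-out counts there were 4 to 7 higher and 0 to 3 lower. Over all genes tested in that comparison 1734 were higher and 1396 lower with the block. DESeq2 had 2297 of all genes lower, the averaged fit 3028, and the leave-out fits 1396 to 1564 higher and 1007 to 1295 lower. In A against B the genes higher ran from 3 to 8 over the leave-out fits, and in B against C from 3 to 6. Over all genes tested the genes higher ran from 1965 to 2210 and from 2130 to 2509 in these fits. The cause of these changes was not tested, beyond the fewer libraries that leave-out and restricted fits hold. The replicate block changed no other count of these genes by over 1.5 times, with 15 higher and 6 lower in GC against naive cells, 17, 16 and 16 higher with CD40, CpG and LPS, and 14 higher in activated against naive cells. Over all genes tested the block gave 3298 higher and 2901 lower in GC against naive cells. It gave 3564, 3556 and 3540 of all genes higher with CD40, CpG and LPS, and 2169 in activated against naive cells. It ended the calls of Rrs1 and Ppan in activated against GC cells, whose fold changes were then -0.61 and -0.56 on the log2 scale.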

Other observations

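Transcripts that host small nucleolar RNAs in their introns, most of them without a protein product, are given here as a list of their own. They are already counted among the further genes above, as are the genes of polyamine and pyrimidine synthesis below. Of 11 such transcripts tested, 1 was higher and 5 were lower in GC against naive cells (17.9% of all genes tested were higher and 16.5% lower). In activated against naive cells 2 were higher and 3 lower, the first near the share of all genes tested (17.9% higher and 12.5% lower). Snhg20 had 11.6, 11.7 and 10.6 CPM in GC libraries, against 20.2, 68.7 and 39.9 CPM in naive libraries (log2 fold change -1.92 ± 0.35, edgeR adjusted p = 0.000559). Epb41l4aos was also lower in GC cells (log2 fold change -1.58 ± 0.44, edgeR adjusted p = 0.0122). Snhg15 had 52.9 to 127 CPM with a median of 95.4 in activated libraries, against 11.9, 16.4 and 9.39 CPM in GC libraries (log2 fold change 2.91 ± 0.38, edgeR adjusted p = 0.0005). Between letters, B was higher than C in 8 of the 11 and lower in none (17.3% and 17.5% of all genes tested), and 22 of the 35 protein genes of ribosome biogenesis were lower in B. Snhg6 had 57.4, 57.7 and 58.1 CPM in B, against 26.5, 29.4 and 32.1 CPM in C (log2 fold change 0.98 ± 0.10, edgeR adjusted p = 3.23e-08), and Zfas1 had 53.3, 50.5 and 53.5 CPM in A, against 91.3, 91.3 and 97.2 CPM in B (log2 fold change -0.83 ± 0.08, edgeR adjusted p = 3.04e-09). Whether these lists differ from each other was not tested.

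The further genes of polyamine and pyrimidine synthesis showed 5 of 12 higher and 2 lower in GC against naive cells (17.9% and 16.5% of all genes tested), and 7 higher and 2 lower in activated against naive cells (17.9% and 12.5%). The 2 that were lower are near the share of all genes in the first of these. Azin1, which protects ornithine decarboxylase from its antizyme, had 414, 420.4 and 394 CPM in GC libraries, against 116, 72.7 and 105 CPM in naive libraries (log2 fold change 2.07 ± 0.19, edgeR adjusted p = 1.17e-06), and was lower in activated than in GC cells (log2 fold change -1.39 ± 0.19, edgeR adjusted p = 0.00061). Sat1, which acetylates spermidine and so starts its breakdown, had 41.7 to 74.9 CPM with a median of 68.9 in activated libraries, against 239.9, 291 and 200.4 CPM in naive libraries (log2 fold change -1.91 ± 0.19, edgeR adjusted p = 9.93e-05). Its GC libraries held 205, 203 and 191 CPM, all above the activated range (log2 fold change -1.62 ± 0.19, edgeR adjusted p = 0.00028). Smox, spermine oxidase, had 6.25 to 10.4 CPM with a median of 8.54 in activated libraries, against 0, 0 and 0.416 CPM in naive libraries, 2 of which held no count (log2 fold change 5.99 ± 1.99, edgeR adjusted p = 0.0459).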
